A study of Drosophila melanogaster with 2 samples.

Results

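The genes described here carry the names of proteins of the cytosolic ribosome of Drosophila melanogaster. They were taken by name, as every protein-coding gene of build dm6 whose symbol begins with RpL, RpS or RpLP and a digit. The rule gave 92 of the 13945 protein-coding genes annotated on the assembled chromosome arms. By name alone, 54 were counted with the large subunit or its stalk and 38 with the small subunit. Among them are 5 genes with a name ending in -like, whose products need not be part of the ribosome, and 13 pairs of paralogues. The genes are short, at 304 to 4677 bp with a median of 1315 bp, against a median of 2166 bp for all protein-coding genes.

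The measurement was chromatin immunoprecipitation with an anti-GFP antibody and sequencing (ChIP-seq) of Relish, written Rel in the labels, the NF-κB factor at the end of the Imd immune pathway. All material came from 1 line of flies that carries Rel with GFP at its C terminus, as whole larvae of the third instar that had begun to wander, with males and females pooled. There were 2 biological replicates, numbered 2 and 3, of this 1 group. The labels give no infection, no untagged larvae and no second condition, so no groups were compared and every value below is a description. Larvae were immunoprecipitated whole, so the tissue behind a peak cannot be told. Neither the promoter that drives the tagged gene nor the state of the larvae's own Rel is stated in the labels. The files hold lists of regions with a signal value but no read counts, so the depth of the libraries is unknown.

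The deposited lists of replicate 2, replicate 3 and their pooled reads hold 30000 regions each. A shorter list holds the 2133 regions kept by the irreproducible discovery rate (IDR) procedure, which asks whether regions rank alike in both replicates. Those 2133 regions are the 2133 strongest of the pooled list. A gene is called bound below if the summit of an IDR region lies in it or up to 1000 bp upstream. The rank of a gene is that of its strongest region in a list, with 1 the strongest. The 2133 strongest regions of each replicate are called its top regions.

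Ribosomal protein genes are among the most highly transcribed genes of a growing larva, and their products are needed in equal amounts. Many of them begin transcription at a TCT initiator, a pyrimidine-rich start that takes the place of the common initiator and that carries over into the start of the mRNA, where it links translation to nutrient signalling. Their introns often hold small nucleolar RNAs (snoRNAs), which guide the modification of ribosomal RNA. Loss of 1 copy of many of these genes gives the Minute phenotype of slow growth and short bristles.

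The start sites below are shown because the strongest summits at most of these genes lay close to them. RpS28b and RpL34b had pooled summits farther off, 734 and 278 bp upstream, and RpL13A had its replicate 2 summit 649 bp upstream. These lie outside the printed stretch. So do the summits of RpL24, RpL7, RpL28, RpL3 and RpS27A and the replicate 3 summit of RpL27, which lay nearer to it. Sequences are from the RefSeq genome of build dm6 and run 5′ to 3′ on the strand of the gene. They span 60 bases before the main start site to 20 bases from it on, or 20 before to 10 from it on where the longer stretch holds more annotated untranslated sequence. Capitals mark a TCT initiator (TCTTT or CCTTT with its C within 5 bases of the start), a DRE (TATCGATA), the core of core promoter motif 1 (GGTCACAC on either strand) or a run of CA (CACACACA on either strand). The first 7 genes are bound.
RpS28b (X:9554563-9554642, plus strand): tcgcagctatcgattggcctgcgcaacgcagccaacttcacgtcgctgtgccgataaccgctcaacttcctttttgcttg
RpL34b (3R:9401207-9401286, minus strand): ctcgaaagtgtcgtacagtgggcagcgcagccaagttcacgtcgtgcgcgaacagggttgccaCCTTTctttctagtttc
RpL37A (2L:5070980-5071009, plus strand): atcgagcggcGGTCACACttttcgctcttt
RpL24 (2L:13395083-13395112, minus strand): ttttcgtttccacttccgtttTCTTTtctt
RpL7 (2L:10200984-10201013, plus strand): cggccaGTGTGACCgtttggccgatggcgc
RpS27 (3R:25247495-25247574, minus strand): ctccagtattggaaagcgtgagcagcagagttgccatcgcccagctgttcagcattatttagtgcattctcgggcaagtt
RpS10b (X:19597980-19598059, plus strand): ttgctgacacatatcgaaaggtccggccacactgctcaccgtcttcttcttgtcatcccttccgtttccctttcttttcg
The other 5 genes are among 7 that ranked high in 1 or both replicates but had no region in the pooled list.
RpL28 (3L:3222939-3223018, minus strand): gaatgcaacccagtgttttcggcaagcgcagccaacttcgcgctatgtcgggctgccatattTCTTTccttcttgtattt
RpL3 (3R:11221834-11221913, plus strand): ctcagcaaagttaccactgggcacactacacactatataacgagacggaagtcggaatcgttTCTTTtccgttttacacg
RpL27 (3R:25685032-25685111, minus strand): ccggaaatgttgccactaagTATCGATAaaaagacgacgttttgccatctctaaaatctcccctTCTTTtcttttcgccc
RpL13A (3R:5624414-5624493, plus strand): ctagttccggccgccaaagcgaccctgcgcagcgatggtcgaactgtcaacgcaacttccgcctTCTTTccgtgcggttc
RpS27A (2L:10408292-10408371, plus strand): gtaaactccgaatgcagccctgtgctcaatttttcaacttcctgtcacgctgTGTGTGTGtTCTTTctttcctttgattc
All 5 of these, and 2 of the 7 bound genes printed, have a TCT initiator in the window. RpS19b and RpL11, the genes with no pooled region that are not printed, have none. The printed genes therefore do not give the share of the initiator in either group.

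Rel-GFP was found at a minority of ribosomal protein genes, and most of its summits there lay within 100 bp of a start site. Of the 92 genes, 11 (12.0%) were bound, against 10.6% of all protein-coding genes, so the share is near the background. Among the 5756 protein-coding genes of like length, 767 to 2317 bp (the 10th to 90th percentile of the members), 4.88% were bound. With a summit required within 500 bp of a start site, 10 of the 92 genes (10.9%) were bound, against 6.88% of all protein-coding genes and 3.93% of those of like length. None of these differences was tested. Described below are RpS28b, RpL34b, RpL37A, RpL41, RpL24, RpL19, RpL7, RpS27, RpS10b and RpLP0-like. By name, the bound genes include 8 of the 54 genes of the large subunit, RpLP0-like among them, and 3 of the 38 of the small subunit.

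**Figure D1:**
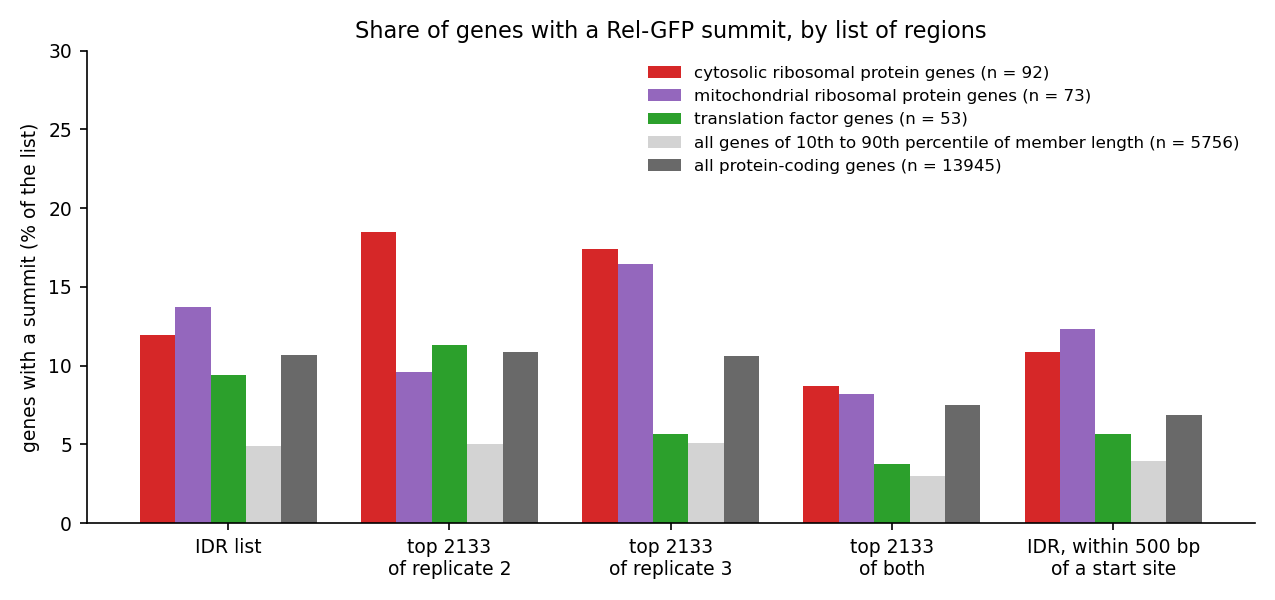
Bars give the percentage of genes of each list with a summit, for the cytosolic and mitochondrial ribosomal protein genes, translation factor genes, genes of like length and all protein-coding genes, by list of regions. The cytosolic ribosomal protein genes stand at 18.5% and 17.4% in the top regions of replicates 2 and 3 but at 8.70% in the top regions of both.

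The strongest region at any ribosomal protein gene belonged to RpS28b, which encodes a small subunit protein. It spanned X:9553691-9554086 and ranked 415 in the pooled list, 777 in replicate 2 and 281 in replicate 3, with signal values of 145, 68.1 and 77.0 relative to the control. It is also the bound gene with the summit farthest from its own start site, 734 bp upstream. That summit lay 139 bp from the start site of l(1)G0320, which is transcribed in the other direction. The sequence from 40 bases before the summit to 40 after it (X:9553849-9553929, plus strand) is shown because it holds none of the motifs searched, and it is rich in A and T.
RpS28b summit: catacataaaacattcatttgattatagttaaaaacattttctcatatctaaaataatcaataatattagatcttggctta

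RpL34b, RpL37A, RpL24 and RpL7, all of the large subunit, were in the top regions of both replicates. RpL34b (3R:9401306-9401701) ranked 587 in the pooled list, 984 in replicate 2 and 581 in replicate 3, with a summit 278 bp upstream of its own start site and 9 bp from that of CG8132. RpL37A (2L:5070793-5071188) ranked 717 in the pooled list, 1074 in replicate 2 and 437 in replicate 3. Its summit lay in the 5′ UTR of a transcript that starts further upstream, and 9 bp before the nearest start site, where the printed window holds the motif 1 core. RpL24 (2L:13394942-13395337), a protein that bridges the ribosomal subunits, ranked 846 in the pooled list, 704 in replicate 2 and 1702 in replicate 3. Its summit lay 9 bp upstream of the nearest start site, which is not the main start site printed above. RpL7 (2L:10200772-10201167) ranked 914 in the pooled list, 2060 in replicate 2 and 593 in replicate 3. Its summit lay 34 bp upstream of its own start site and 4 bp from that of Ripalpha, a gene transcribed the other way. The replicates put these 4 genes in different orders, with RpL24 first in replicate 2 and last in replicate 3.

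RpL41 and RpL19, also of the large subunit, were in the top regions of both replicates as well. RpL41, which encodes a very short peptide of the ribosome, ranked 730 in the pooled list, 1281 in replicate 2 and 458 in replicate 3, with a summit 33 bp upstream. RpL19 ranked 894 in the pooled list, 825 in replicate 2 and 1570 in replicate 3. Its summit lay 111 bp upstream of its own start site and 20 bp from that of CG3776.

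For the last 3 bound genes the rank in replicate 3 lay beyond 2133. RpS27 (3R:25247311-25247706), a zinc finger protein of the small subunit, ranked 1006 in the pooled list, 675 in replicate 2 and 4614 in replicate 3, with signal values of 72.1 in replicate 2 and 24.7 in replicate 3. Its summit lay 5 bp downstream of the start site. RpS10b (X:19597838-19598233), also of the small subunit, ranked 1666 in the pooled list, 1360 in replicate 2 and 4045 in replicate 3, with a summit 4 bp before the nearest start site. RpLP0-like, named for its likeness to the stalk protein RpLP0 and known from work on yeast as a factor of ribosome assembly, ranked 1731 in the pooled list, 1722 in replicate 2 and 3621 in replicate 3. Its summit lay 45 bp upstream of its own start site and 42 bp from that of 14-3-3zeta. For 5 of the 11 bound genes (RpS28b, RpL34b, RpL19, RpL7 and RpLP0-like) the summit was nearer to the start site of another gene than to their own, and these data cannot tell which of the 2 genes such a region belongs to.

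**Figure D2:**
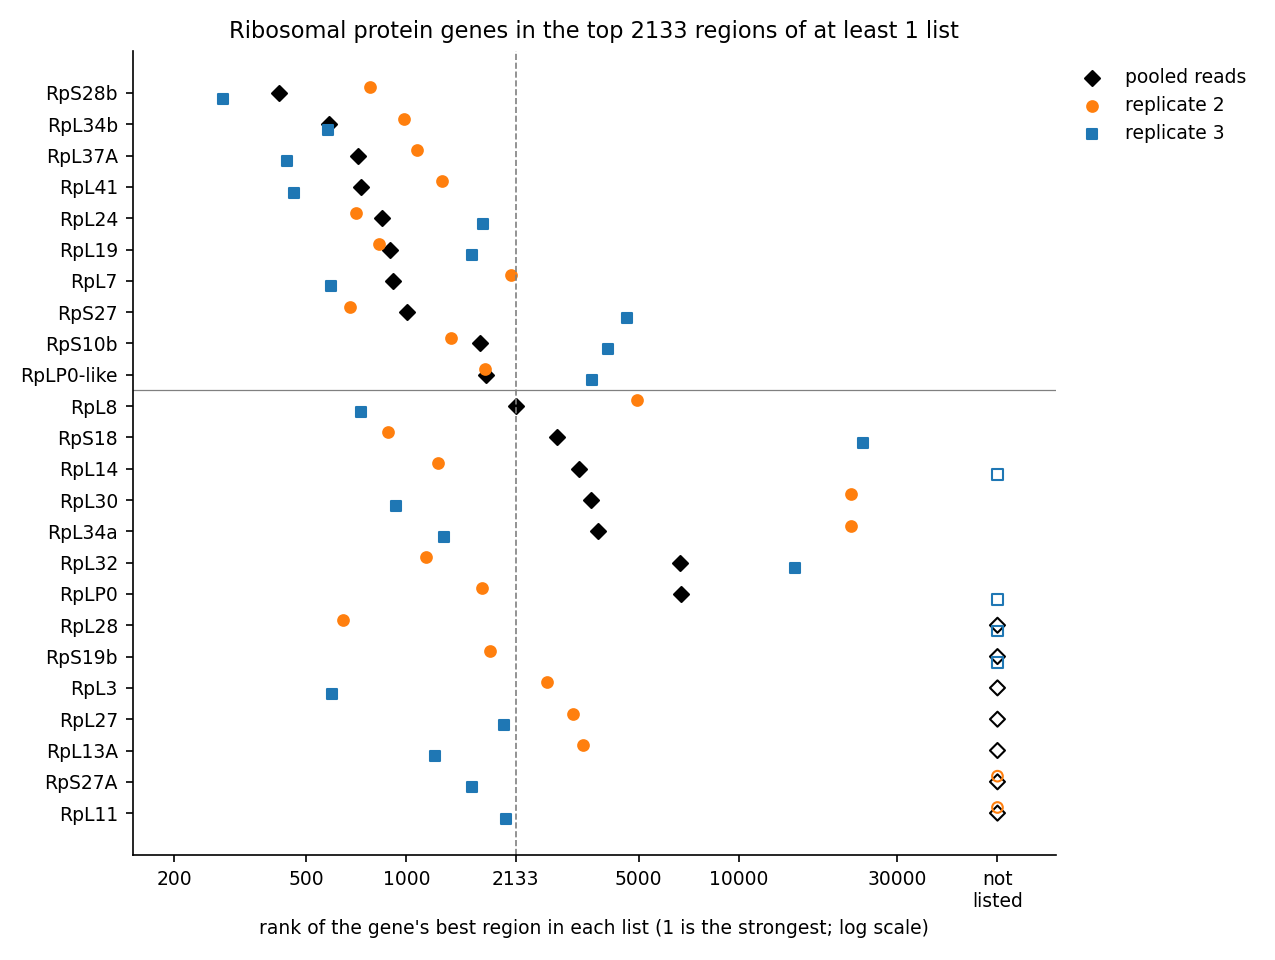
The rank of the strongest region of each gene on a log scale, for the pooled reads (diamonds), replicate 2 (circles) and replicate 3 (squares); the dashed line is rank 2133 and open symbols mark genes with no region in that list. The 10 genes above the horizontal line are bound; of the 14 below it, the last 7 have no region in the pooled list although at least 1 replicate places each of them inside rank 2133.

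Just outside the threshold stood RpL8, a large subunit protein, with a pooled rank of 2137 and a signal of 72.46, against 72.53 at rank 2133. Its ranks were 4931 in replicate 2 and 728 in replicate 3. RpL36A followed at rank 2700, RpL17 at 2789, RpS18 at 2833 and RpL10Ab at 3183. RpS18 ranked 878 in replicate 2 and 23610 in replicate 3, which are the positions of a strong region in 1 list and of a weak one in the other. No gene was in the top regions of both replicates without being bound.

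The replicates differed more over the ribosomal protein genes than over genes at large. In replicate 2, 17 of the 92 genes (18.5%) had a top region, against 10.8% of all protein-coding genes, and in replicate 3, 16 did (17.4%, against 10.6%). Only 8 genes (8.70%) were in both, against 7.49% of all protein-coding genes. Of the ribosomal protein genes in the top regions of replicate 2, 47.1% were also in those of replicate 3, against 69.1% for all protein-coding genes and 59.2% for genes of like length. Of the 16 in the top regions of replicate 3, 8 were also in those of replicate 2, against shares of 70.5% for all protein-coding genes and 58.4% for genes of like length. Spearman's rho between the ranks in the 2 replicates was 0.41 over the 55 ribosomal protein genes listed in both, 0.73 over 6192 genes of all kinds and 0.62 over 1577 of like length. Genes are not independent replicates, and these values carry no test.

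**Figure D3:**
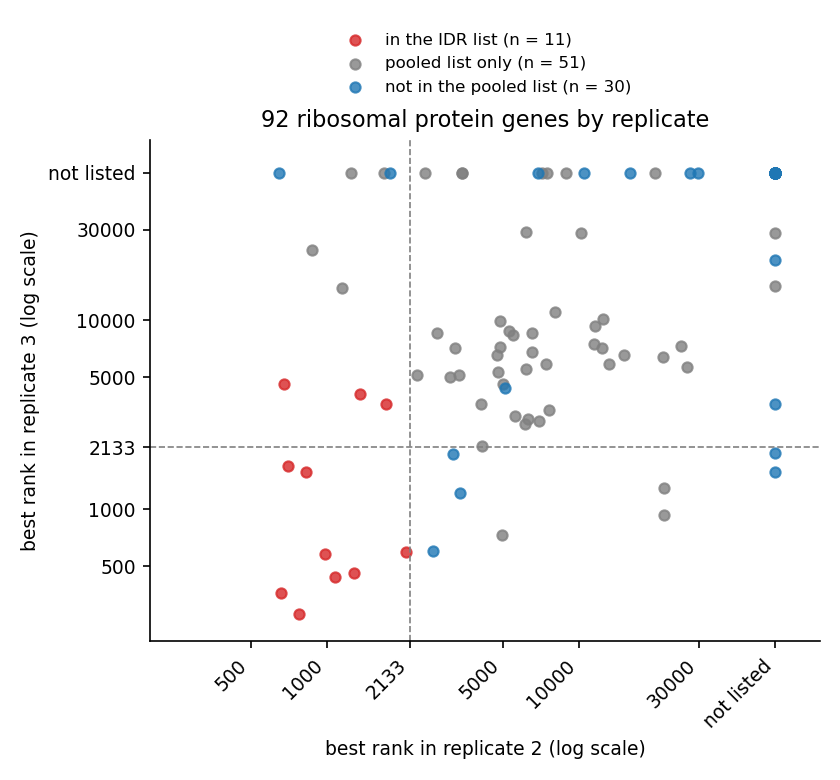
Each point is 1 of the 92 ribosomal protein genes, at its best rank in replicate 2 and in replicate 3 on log scales; dashed lines mark rank 2133, and genes with no region in a list are drawn past 30000. The 11 bound genes (red) lie to the left of the vertical line, 8 of them also below the horizontal one, and 30 genes (blue) have no region in the pooled list.

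A further 14 genes were in the top regions of 1 replicate and were not bound; they were picked out after their values were seen. Of this group, 7 genes had a weaker region in the pooled list. Besides RpL8 and RpS18 these were RpL14, RpL30, RpL34a, RpL32 and the stalk protein gene RpLP0. RpL32, also called rp49 and widely used as the reference gene in fly qPCR, ranked 1146 in replicate 2, 14760 in replicate 3 and 6649 in the pooled list. RpL30 ranked 21783 in replicate 2 and 928 in replicate 3, although the summits lay 88 bp apart. RpL14 ranked 1244 and RpLP0 1686 in replicate 2, and neither had a region in replicate 3.

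The other 7 genes had no region among the 30000 of the pooled list. RpL28, which hosts 5 snoRNAs, ranked 646 in replicate 2, with a summit 63 bp upstream of the start site, and had no region in replicate 3. RpS19b ranked 1781 in replicate 2, and RpS27A, which encodes a fusion of ubiquitin with a small subunit protein, ranked 1576 in replicate 3. RpL11 ranked 1990 in replicate 3. RpL3, RpL27 and RpL13A were listed by both replicates. RpL3 ranked 2649 in replicate 2 and 599 in replicate 3, with summits 106 and 62 bp downstream of the start site, in an intron. RpL27 ranked 3171 and 1971, with summits 17 and 72 bp upstream of the start site. RpL13A ranked 3388 and 1216, with summits 649 and 28 bp upstream.

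The share of genes lost in the pooled list was above that of all genes. Of the 25 ribosomal protein genes in the top regions of either replicate, 7 (28.0%) had no pooled region, against 4.56% of 1951 genes of all kinds and 11.9% of genes of like length. It was 2 of 7 translation factor genes (28.6%) and 2 of 13 mitochondrial ribosomal protein genes (15.4%), so cytosolic ribosomal protein genes do not stand alone in this. Counted by region, 5 of the 17 top regions of replicate 3 at ribosomal protein genes (29.4%) overlapped no pooled region, against 2.11% of all 2133. In replicate 2 it was 2 of 17 (11.8%), against 2.16%. Within the 4000 strongest regions of both replicates were 12 ribosomal protein genes, and 3 of these (25.0%) had no pooled region, against 40 of 1745 genes of all kinds (2.29%). What removed these regions was not tested, since the lists hold no reads.

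The remaining 67 genes were in no top list. Of these, 44 had a region in the pooled list, with a median rank of 6329.5, and 15 had none in any of the 3 lists of 30000. Such absence was less frequent than in the background: 15 of the 92 genes, against 4003 of 13945 protein-coding genes and 2259 of 5756 of like length. Among the 15 were RpL10Aa, RpL24-like, RpL37-2, RpS10a, RpS15Ab and RpS28a, each a member of a paralogue pair. The others of the 15 belong to none of the 13 pairs. Over the whole group, 62 of 92 genes (67.4%) had a pooled region of any rank, against 52.8% of all protein-coding genes, and the median best rank was 5222.5, against 8094. With the less strict criterion of a pooled q value under 0.05, 26 of the 92 genes (28.3%) had a summit, against 17.5% of all protein-coding genes.

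Summits at ribosomal protein genes mostly lay close to a start site. The 12 IDR summits at ribosomal protein genes lay at a median of 36.5 bp from the nearest of their start sites, and 8 of the 12 (66.7%) lay within 100 bp. Over all 2246 assignments of an IDR summit to a gene the median was 551 bp, and 12.2% lay within 100 bp. Long genes admit more distant summits: for genes of like length the median over 292 assignments was 168.5 bp, and 28.1% lay within 100 bp. In the pooled list of 30000, the 94 summits at ribosomal protein genes lay at a median of 154 bp, with 45.7% within 100 bp, against 1739 bp for all genes and 353 bp for genes of like length, with 19.5% of the last within 100 bp. For the 11 bound genes the best summits of replicates 2 and 3 were a median of 47 bp apart, the same as for all bound genes. Bound genes hold the strongest regions of the reads pooled from both replicates, so this nearness may be partly set by the selection. That part was not tested. Among genes that were not bound, the summits were a median of 154.5 bp apart at 44 ribosomal protein genes, against 505.5 bp at 4716 genes of all kinds. Short genes leave less room for such a gap, and genes of like length were not compared here.

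**Figure D4:**
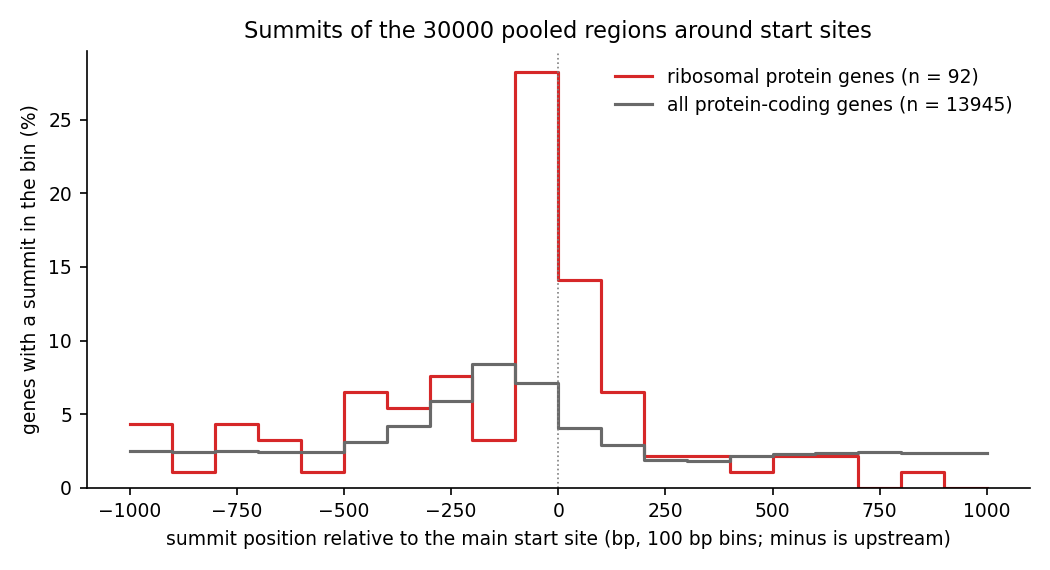
The percentage of genes with a pooled summit in each 100 bp bin around the main start site (the one most annotated transcripts use), for the ribosomal protein genes (red) and all protein-coding genes (grey). In the bin from 100 bp upstream to the start site, 28.3% of ribosomal protein genes have a summit, against 7.13% of all genes, and in the first 100 bp of the gene 14.1%, against 4.08%; from 200 to 100 bp upstream it is 3.26%, against 8.40%.

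The promoters (250 bases before to 50 after the main start site) were searched for short motifs on both strands, except the TCT initiator, which was searched on the strand of the gene. The TCT initiator was found at 40 of 92 ribosomal protein genes (43.5%), against 2.19% of all protein-coding genes and 1.37% of mitochondrial ribosomal protein genes. The DRE, the site of the factor Dref, was in 28 promoters (30.4%), against 9.23% of all. The core of motif 1, the site of M1BP, was in 13 (14.1%), against 7.79%. The E-box CACGTG, the site of Myc, was in 10 (10.9%), against 4.20%. The string GAGAGAG, the site of the GAGA factor, was in none of the 92, against 6.16% of all promoters. A broad form of the kB string, to which NF-κB factors bind, was in 3 (3.26%), against 2.29%. CACACACA was in 3 (3.26%), against 4.22%. These motifs are a property of the genes' sequence and not of the immunoprecipitation.

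**Figure D5:**
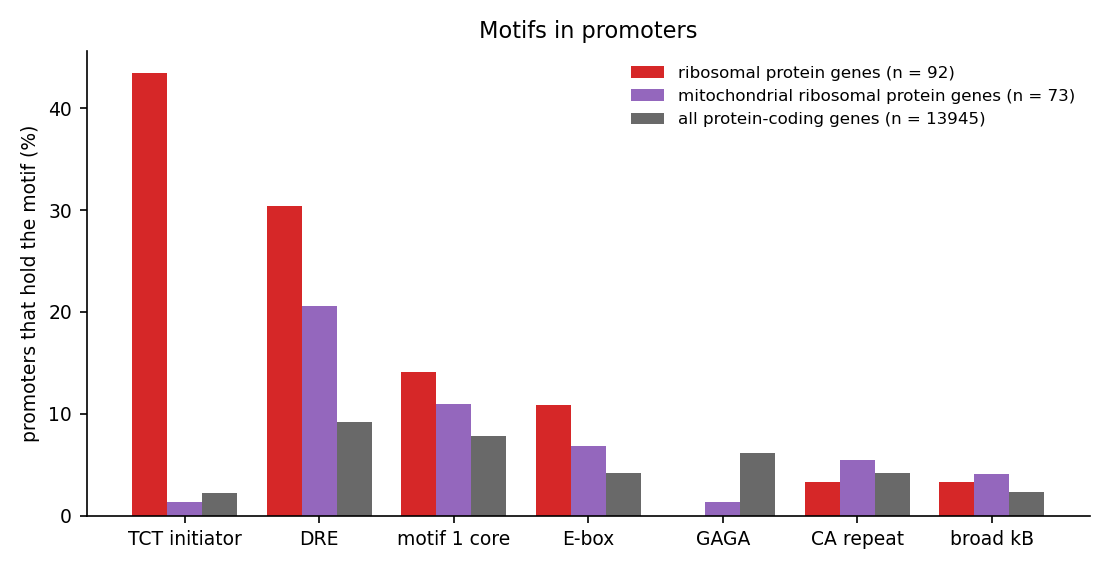
Bars give the percentage of promoters that hold each motif, for cytosolic ribosomal protein genes, mitochondrial ribosomal protein genes and all protein-coding genes. The TCT initiator is in 43.5% of the cytosolic ribosomal protein promoters and the GAGA string in none of them.

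Most bound genes had no TCT initiator. Of the 11 bound promoters 3 had one (27.3%), against 37 of the 81 that were not bound (45.7%). Of the 25 genes in the top regions of either replicate 11 had one (44.0%), against 29 of the other 67 (43.3%), so the presence of the initiator did not separate them. The E-box was in 4 of the 11 bound promoters (RpL34b, RpL24, RpL7 and RpLP0-like) and in 6 of the 81 that were not bound (7.41%). Around the summits themselves, in windows of 100 bp either side, the DRE was found at 4 of the 12 IDR summits at ribosomal protein genes (33.3%), against 2.14% of the 888 IDR summits that lie within 500 bp of any start site. RpL41 and RpS10b are among them. The E-box was found at 3 of the 12 (25.0%), against 2.59%, and the motif 1 core at 2 (16.7%, RpL37A and RpL7), against 0.676%. GAGAGAG was at none of the 12, against 15.0% of such summits, and CACACACA at none, against 9.80%. The broad kB string was at none of the 12, against 1.35%. A match says only that the letters are there, and with 12 windows each count is small.

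Other genes of the translation machinery were set beside these as lists. Of the 73 mitochondrial ribosomal protein genes, which act in the organelle, 10 were bound (13.7%). Their strongest regions ranked higher than any at a cytosolic ribosomal protein gene, with mRpS23 at rank 21, mRpS10 at 181, mRpL23 at 275 and mRpL2 at 276. Of 53 translation factor genes 5 were bound (9.43%), led by eIF2Bbeta at rank 3, eIF4EHP, a repressor that binds the mRNA cap, at 350, eIF4H1 at 1296 and eIF1A at 1400. The eIF2Bbeta summit lay more than 500 bp upstream of its start site, and 3 of the 53 (5.66%) had an IDR summit within 500 bp of one. Of 19 genes listed for ribosome biogenesis, a list without RpLP0-like, none was bound, and 1 was in the top regions of replicate 2. Of 18 genes known to regulate ribosomal protein genes or their mRNAs 9 were bound. They include larp, whose vertebrate counterpart binds the starts of such mRNAs, at rank 10, foxo at 28, Trl, the gene of the GAGA factor, at 99, and Trf2, a TBP relative used at TCT promoters, at 288. These regulators are long genes, with a median of 8115 bp, and the part of length in this count was not tested. Within 500 bp of a start site 5 of the 18 (27.8%) had an IDR summit. The strongest summits of foxo, Trl and Trf2 lay 3703, 1516 and 2453 bp downstream of a start site. Distances to the start sites of other genes are not given for these lists. A rank here therefore need not reflect binding at the promoter of the gene named.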

How the data were processed

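Peak lists of 2 Rel-GFP ChIP-seq libraries from whole larvae, their pooled reads and the IDR procedure were used on build dm6; the dm3 lists were not used here. The deposited signal value (column 7), made by the authors relative to a control alignment, served only to rank regions within a list. The deposited −log10 of the q value (column 9) defined an added set at q under 0.05. The sources used here do not name the aligner or the peak caller. Chromatin was sheared to 200 to 800 bp, per the labels. Lists of fixed length make rank, not presence, informative, and the signal has no read counts behind it, so precision beyond the 2 replicates is unknown.

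Genes and start sites came from Ensembl release 115 on Release 6, and sequence from the RefSeq assembly of the same release. The members and gene lists were chosen with earlier results of these data known. Named were all bound members, the 5 next by pooled rank and up to 4 bound genes of each other list; the genes high in 1 replicate were named after their values were seen. Some genes that the rule names are not reported here. Of the list symbols, 4 were not matched. Summit assignment and motif search were tested on simulated regions and recovered every placed summit. Alternatives left out each replicate or changed the threshold, gene assignment, start site distance, list length, ranking column or promoter window. Sequences were read with pyfaidx 0.9.0.4 and tables with pandas 2.3.3 (Python 3.11.15, numpy 2.4.6), and figures drawn with matplotlib 3.10.9.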

Additional observations from a re-analysis of the deposited data

How the results depend on the processing

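Leaving out 1 replicate and taking the top regions of the other gave 16 to 17 bound genes in place of 11, 15 to 15 in place of 10 within 500 bp of a start site, and a median distance of 29 to 62 bp in place of 36.5 bp. Pooled regions with a q value under 0.05 gave 26 bound genes, 25 of them within 500 bp of a start site. Without the upstream 1000 bp, 3 genes were bound, and 7 were when each summit went to the gene with the nearest start site at any distance, 6 of them among the 11. Shares of all protein-coding genes under these changed rules are not given, so neither count can be set beside a background. The E-box was in 22.8% of promoters with a window of 200 bp either side of the start site, in place of 10.9%. In that window it was in 5.54% of all promoters. It was in 6 of the 11 bound promoters (54.5%) and in 15 of the 81 that were not bound (18.5%). The top 4000 regions of both replicates held 12 genes in place of 8. Without the -like genes, a choice added after seeing the data, 10 were bound. No other alternative moved a count by over 1.5 times. Ranked by q value, RpS28b stood at 1, shared by 504 regions; the cause was not tested. With 2 replicates and no read counts, the spread is known only from the difference between the replicates.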

Other observations

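Among the strings of 8 bases found in at least 8 of the 92 ribosomal protein promoters, CCGGAAAC had the highest share relative to all promoters. It was chosen after the sequences were seen and has no test. It was in 15 promoters (16.3%), against 88 of 13945 (0.631%), on either strand, among them those of RpL8, RpL11, RpL17, RpL27, RpL32 and RpS18. Of the 15, RpL37A and RpS10b were bound, and 7 were in the top regions of either replicate.

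Hosts of snoRNAs were absent from the bound genes. A host here is a gene with an annotated snoRNA inside it on the same strand, and its place in an intron was not checked. None of the 28 ribosomal protein genes that host one was bound, against 11 of the other 64. Over all 84 protein-coding genes that host one, which include the 28, 17 were bound (20.2%). The hosts were not absent from the replicates: 6 of the 28 were in the top regions of 1 replicate, and 4 of these 6 had no pooled region.

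In 6 of the 13 pairs of paralogues 1 copy was bound, and in none both were. Since 11 of the 92 genes (12.0%) were bound, against 10.6% of all protein-coding genes, pairs with both copies bound would be rare at that share. RpL34b ranked 587 in the pooled list, against 3770 for RpL34a, and RpS10b 1666, while RpS10a had no region in any list. All 14 ribosomal protein genes on X had a pooled region of some rank, against 60.4% of all protein-coding genes on X and 43.4% of those of like length. On 3R it was 9 of 23 (39.1%), against 51.9% of all and 37.9% of those of like length. The share on 3R was thus near that of genes of like length. The difference between X and 3R was seen in the data first and was not tested.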
